A study of Mus musculus with 4 samples.

Results

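The genes described here are 10 genes of the mouse lens that were listed by name, by a rule that sets no threshold on their values but was drawn up with earlier results of these data known: the Notch receptors Notch1, Notch2 and Notch3, the ligands Jag1, Jag2 and Dll1, the DNA-binding mediator Rbpj, the target genes Hes1 and Hey1, and Herpud1. All 10 were among the 56748 genes measured by RNA sequencing of whole lenses, and all 10 passed the filter on low values that left 15997 genes for testing. Lenses came from mice aged 10 to 12 days, and poly(A) RNA was sequenced from 2 libraries of Fsp1-cre;Pdgfrb+/D849V lenses (mutant) and 2 libraries of control lenses. The D849V allele is a conditional knock-in at the endogenous Pdgfrb locus that encodes a hyperactive PDGF receptor beta. Cre is driven by the promoter of Fsp1 (S100a4), which is not specific to the lens. The ages at which the paper reports cre reporter activity in the lens epithelium are later than those sampled here. The paper assumes that the mutant receptor is expressed once cre is induced. Recombination in these pools was therefore not shown, and mutant refers to the genotype. The labels give the controls as Fsp1-cre;Pdgfrb+/+, whereas the methods of the study state that control pools also held Pdgfrb+/+ and Pdgfrb+/D849V lenses without cre, so mice with the unrecombined allele may be part of the control value. Both groups were of the FVB/N background, in a line that also carries the Rosa-LSL-tdTomato reporter. Lenses of several mice were combined in each library, and every test below measures the spread between pools.

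Notch signalling passes between touching cells. A Jagged or Delta ligand on one cell binds a Notch receptor on its neighbour, the receptor is cut by an ADAM protease and then by gamma-secretase, and the released intracellular domain enters the nucleus, where it joins RBPJ and a Mastermind-like coactivator on target genes such as the Hes and Hey repressors. In the lens the pathway is known for keeping epithelial cells proliferating and for the growth of secondary fibres, with JAG1 on fibre cells and Notch receptors on the adjoining epithelium. Herpud1 stands outside this pathway: it encodes an endoplasmic reticulum membrane protein with a ubiquitin-like domain that serves in the degradation of misfolded proteins and is induced by the unfolded protein response. It shares an older alias, HERP, with members of the Hey family, and its values are therefore given beside those of unfolded protein response genes.

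The FPKM values corresponded to between 18561682 and 18878768 reads per library, of which 58.6% to 62.9% lay in crystallin genes. Of 9 lens fibre markers 8 were detected, with Lim2 listed at 0 in every library, and all 6 epithelial markers were detected. The fibre marker Lgsn was lower without overlap, at 19.0 and 5.54 FPKM in mutant and 28.5 and 41.0 FPKM in control lenses. Its adjusted p was 0.769 in limma and 0.00315 in limma voom on recovered reads. The epithelial marker Pdgfra was also lower without overlap, at 4.02 and 5.25 against 5.86 and 5.32 FPKM. The other detected lens markers overlapped. Summed FPKM of 6 leukocyte markers was 1.79 to 1.92 in mutant and 0.477 to 0.998 in control lenses, on 14 to 52 reads per library. Of the 6, 5 were higher without overlap, against 18.2% of all tested genes. These include Adgre1, with 1 read in each mutant library and 0 in each control library. Adgre1 and Csf1r failed the filter and were not tested. Endothelial markers summed to 9.05 and 5.91 FPKM in mutant replicates 1 and 2 and to 9.03 and 7.43 FPKM in control replicates 1 and 2, and mural cell markers to 16.5 to 19.0 and 17.2 to 17.9 FPKM in mutant and control lenses. Cldn5 and Acta2 held most of these sums, which therefore say little about the other markers. Of 7 endothelial markers, 1 (Tie1) was lower without overlap and 0 were higher. Tie1 was at 0.433 and 0.26 FPKM in mutant and 0.586 and 0.64 FPKM in control lenses. Markers of ciliary body and iris pigment cells summed to 0.634 and 0.709 FPKM in mutant and 0.845 and 1.34 FPKM in control lenses, lower without overlap, on 29 to 68 reads per library. Retinal markers summed to 0.249 to 2.02 and 0.431 to 0.663 FPKM and red blood cell markers to 15.9 to 24.7 and 20.6 to 33.9 FPKM in mutant and control lenses, both with overlap. The share of these cells in the Notch values was not tested. Pdgfrb, the altered gene, was at 2.36 and 2.16 FPKM in mutant and 2.25 and 1.79 FPKM in control lenses, which overlap, and the table does not separate its alleles. Xist, expressed from the inactive X chromosome of females, was at 7.62 and 13.1 FPKM in mutant and 15.6 and 5.56 FPKM in control lenses. The mix of sexes may thus have differed between pools of each group, which Xist alone does not establish. In whole lenses, fewer cells of a type and less RNA per cell cannot be told apart.

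In control lenses the 10 genes spanned 15.1 to 0.352 FPKM, a value per kilobase that allows levels of different genes to be compared. Herpud1 and the ligand Jag1 came first, at 15.1 ± 2.41 and 13.7 ± 0.0265 FPKM (SD, n = 2), and their ranges overlapped. Jag1 exceeded 92.4% of the tested genes in mean control FPKM. The target genes Hey1 and Hes1 followed at 5.98 ± 0.838 and 4.42 ± 0.295 FPKM (SD, n = 2), each above the next gene in every control library. Notch2 led the receptors of the list at 1.90 ± 0.313 FPKM, above Notch1 at 1.13 ± 0.131 and Notch3 at 1.01 ± 0.107 FPKM (SD, n = 2), and the ranges of Notch1 and Notch3 overlapped. Jag2, Dll1 and Rbpj were lowest, at 0.727 ± 0.0583, 0.476 ± 0.000267 and 0.352 ± 0.0250 FPKM (SD, n = 2), with no overlap between neighbours. Lengths in the deposited table exceeded the longest protein-coding transcript in GENCODE M21 by up to 2.32 times, the value for Rbpj. With the transcript length in its place, a comparison chosen after the data were seen, Rbpj stood at 0.819 and Dll1 at 0.560 FPKM and changed places as ranks 9 and 10.

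**Figure D1:**
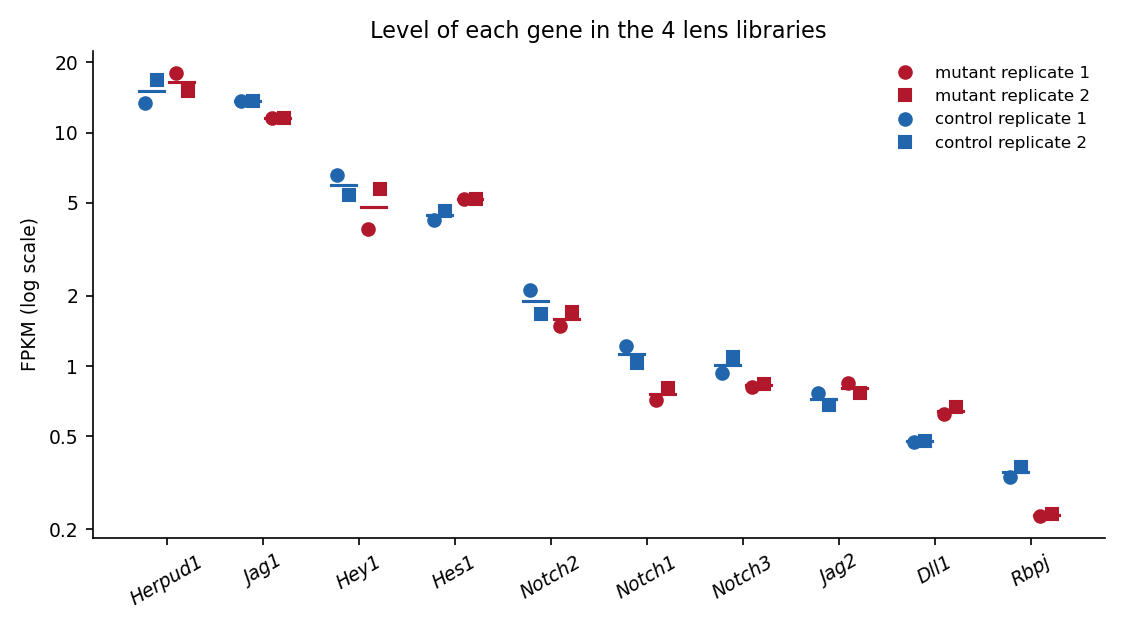
FPKM (vertical axis, log scale) of the 10 genes in each of 2 mutant (red) and 2 control (blue) libraries, ordered by control mean. Points are libraries and short lines are group means; Jag1 was at 11.5 FPKM in both mutant libraries and at 13.7 FPKM in both control libraries, while the Herpud1 points of the groups interleave.

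The comparison of mutant with control lenses asks whether expression of the pathway differed at an age before visible cataract. None of the 10 genes passed an adjusted p of 0.05 in limma, with adjusted p-values from 0.769 to 0.884, where 6 of 15997 genes (0.0375%) passed. At an unadjusted p under 0.05 there were 2 of the 10, Notch1 and Jag1, both lower in mutant lenses, against 6.31% of all tested genes. The log2 fold change (mutant minus control, on log2 of FPKM + 0.1) was negative for 6 genes and positive for 4, and its median was -0.24 where the median of all tested genes was 0.0041. The values of the groups did not overlap for 4 genes that were lower (Notch1, Notch3, Jag1, Rbpj) and 3 that were higher (Jag2, Dll1, Hes1), against 18.3% and 18.2% of all tested genes. With 2 libraries against 2, an exact permutation test on a single gene cannot go below p = 0.333. The count of 2 was 1 without either mutant library and 0 without control replicate 1 or control replicate 2.

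**Figure D2:**
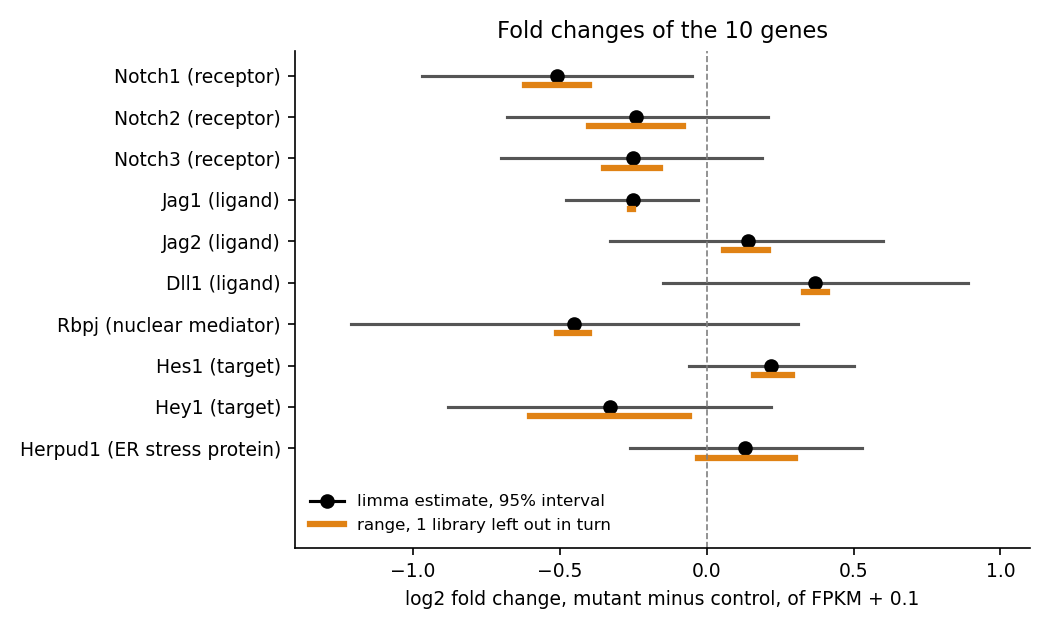
Log2 fold change of each gene, mutant minus control, on log2 of FPKM + 0.1 (horizontal axis), with its role. Black points and lines are the limma estimate and 95% interval over 4 libraries and orange lines the range when each library was left out in turn; the intervals of Notch1 and Jag1 lie below 0, the other intervals include 0, and the orange range of Herpud1 reaches -0.03.

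All 3 listed receptors had a lower mean in mutant lenses, and only for Notch1 did the 95% interval exclude 0. Notch1 (mm39, chromosome 2, 26347915 to 26406675, minus strand) was at 0.713 and 0.807 FPKM in mutant and 1.22 and 1.03 FPKM in control lenses, on 181, 225, 337 and 271 reads. Both mutant values lay below both control values, and the mutant mean was 0.676 times the control mean. Its log2 fold change was -0.51 with an SE of 0.18 and a 95% interval of -0.97 to -0.05 (adjusted p = 0.782, limma), and it ran from -0.62 to -0.40 with 1 library left out.

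Notch2 (chromosome 3, 97920843 to 98057677, plus strand) was at 1.48 and 1.71 FPKM in mutant and 2.12 and 1.68 FPKM in control lenses, so mutant replicate 2 lay above control replicate 2. Its log2 fold change of -0.24 had an interval of -0.68 to 0.21 (adjusted p = 0.811, limma). For Notch3 (chromosome 17, 32339794 to 32385826, minus strand), a receptor known for its role in vascular mural cells, the values were 0.818 and 0.840 FPKM in mutant and 0.935 and 1.09 FPKM in control lenses. These groups did not overlap, but the interval of the log2 fold change, -0.25, ran from -0.70 to 0.19. Of 8 mural cell markers, 1 (Rgs5) was lower and 1 (Abcc9) higher in mutant lenses without overlap, and the summed level of the 8 overlapped. Acta2 held most of that sum, at 12.6 and 11 FPKM in mutant and 9.79 and 11.2 FPKM in control lenses. The next largest, Rgs5, was at 3.43 and 2.47 FPKM in mutant and 4.6 and 4.3 FPKM in control lenses. The overlap of the sum therefore does not show that the other mural markers were level.

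Summed over Notch1 to Notch4, receptor FPKM was 3.36 and 3.59 in mutant and 4.56 and 3.95 in control lenses. Notch2 held the largest share in every library, 42.6% to 47.7%, and the groups overlapped. The share of Notch1 was 21.3% and 22.5% in mutant and 26.7% and 26.2% in control lenses. Notch2 thus stood at 2.07 and 2.12 times Notch1 in mutant and at 1.74 and 1.63 times in control lenses, while the ratio of Notch1 to Notch3 overlapped between groups, at 0.872 and 0.962 against 1.30 and 0.951.

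Among the ligands the most abundant, Jag1, was lower in mutant lenses and the scarcer Jag2 and Dll1 were higher. Jag1 (chromosome 2, 136923376 to 136958564, minus strand) encodes the ligand known for its part in fibre differentiation, and it was measured at 11.5 and 11.5 FPKM in mutant and 13.7 and 13.7 FPKM in control lenses, on 1191, 1316, 1556 and 1471 reads. Replicates of a group lay closer together than the groups. Counting alone (Poisson) puts a 95% interval of 1120 to 1260 on the lowest of these counts, 1191 reads. The replicates were thus closer than counting error alone would leave them, and their closeness does not measure the spread between pools. The mutant mean was 0.839 times the control mean, with a log2 fold change of -0.25, an SE of 0.09 and a 95% interval of -0.48 to -0.03 (adjusted p = 0.769, limma). The estimate stayed between -0.26 and -0.25 with 1 library left out. Scaling the libraries to equal totals of recovered reads gave -0.28 for Jag1 and -0.54 for Notch1, and neither unadjusted p was then under 0.05.

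Jag2 (chromosome 12, 112871439 to 112893396, minus strand), the second Jagged ligand, was at 0.846 and 0.770 FPKM in mutant and 0.768 and 0.685 FPKM in control lenses. The groups were parted only by the gap between 0.770 and 0.768, on 105 and 104 reads, and the log2 fold change of 0.14 had an interval of -0.33 to 0.60. Dll1 (chromosome 17, 15587616 to 15597134, minus strand), a Delta-like ligand, was at 0.625 and 0.666 FPKM in mutant and 0.475 and 0.476 FPKM in control lenses. The mutant mean was 1.36 times the control mean. With 47, 55, 39 and 37 reads, its log2 fold change of 0.37 had an interval of -0.15 to 0.89 (adjusted p = 0.811, limma).

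Jag1 made up 84.2% and 87.6% of summed ligand FPKM in mutant and 89.3% and 89.3% in control lenses. Its ratio to Dll1 was 18.3 and 17.3 in mutant and 28.9 and 28.8 in control lenses, and its ratio to Jag2 was 13.6 and 15.0 against 17.9 and 20. Neither ratio overlapped between groups, which follows from the values of Jag1, Jag2 and Dll1 given above and is no further support. The remaining ligands were scarce: Dll4, a ligand of endothelial tip cells, was at 0.641 and 0.119 FPKM in mutant and 0.307 and 0.465 FPKM in control lenses, and Dll3 had at most 5 reads in a library.

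**Figure D3:**
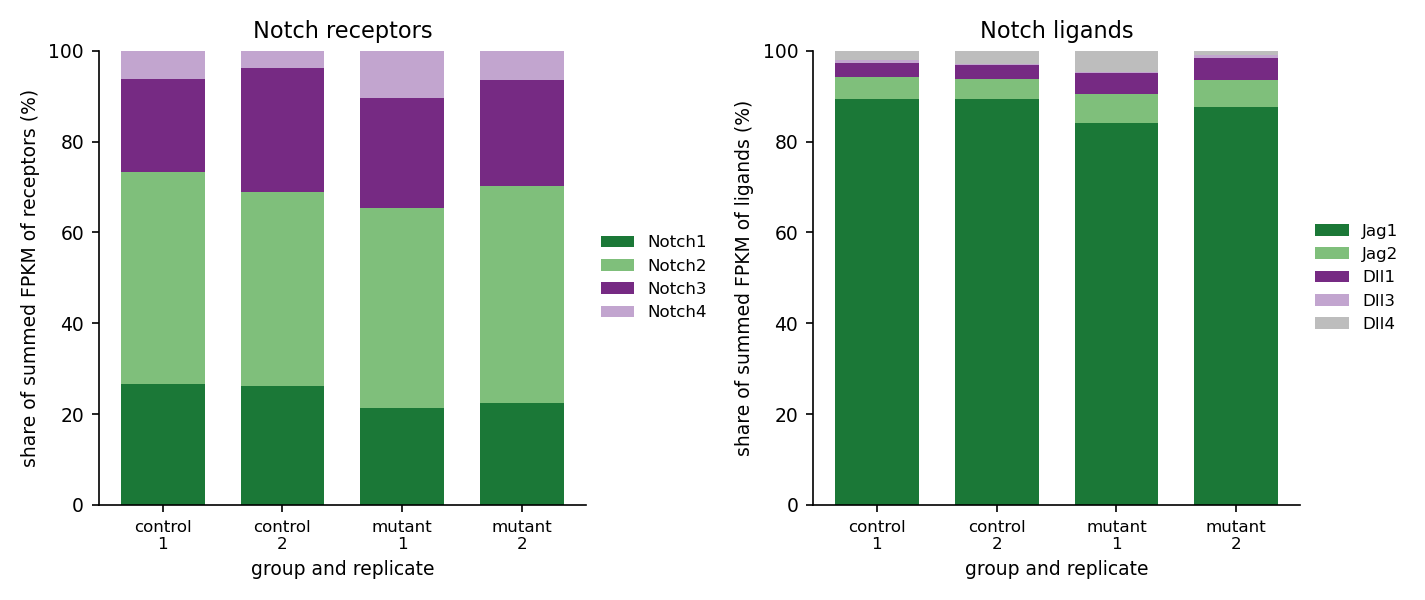
Share (vertical axes, %) of each receptor (left) and each Delta or Jagged ligand (right) in the summed FPKM of its class, with 1 bar per library. Notch1 takes 26.7% and 26.2% of receptor FPKM in control and 21.3% and 22.5% in mutant lenses, and Jag1 takes 84.2% to 89.3% of ligand FPKM in all 4 libraries.

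Rbpj (chromosome 5, 53623494 to 53814704, plus strand), which encodes the DNA-binding protein that all Notch receptors act through, had the fewest FPKM of the list. It was at 0.229 and 0.232 FPKM in mutant and 0.335 and 0.370 FPKM in control lenses, on 52, 58, 83 and 87 reads. Both mutant values were below both control values, and the mutant mean was 0.654 times the control mean. The log2 fold change was -0.45 with a 95% interval of -1.21 to 0.31 (adjusted p = 0.811, limma), the widest interval of the 10 genes, and -0.60 in limma voom on recovered reads (adjusted p = 0.613). A processed pseudogene, Rbpj-ps3, had reads equal to 51.4% of those of Rbpj over the 4 libraries: 18 and 41 in mutant and 52 and 33 in control lenses. Reads from near-identical copies can be assigned to either or left out of both, and how they were counted is not stated. The level of Rbpj is therefore uncertain by an amount that is not known. Added together, Rbpj and Rbpj-ps3 had 70 and 99 reads in mutant and 135 and 120 reads in control lenses, which do not overlap.

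Promoter windows of 250 bases before a start site were taken from RefSeq (GRCm38.p6, matched by symbol and not by coordinates of the files' build) for 8 of the 10 genes and searched on both strands. TGGGAA, the core letters that RBPJ is known to bind, were found in windows of 1 of the 8 genes, Rbpj itself, and in 21.6% of 32851 windows of all genes. Of the letters bound by Hes and Hey repressors, only CACNAG and CACGTG were searched, and other sites of these proteins were not. CACNAG was in windows of Notch1, Notch2 and Notch3 and in 36.7% of all windows. CACGTG was in none of the windows of the 8 genes and in 6.02% of all windows. The stretch upstream of Rbpj that lies in no annotated exon is shown because it carries the letters of the protein's own motif, in capitals, from 149 to 144 bases before the start (chr5:53590096-53590213, plus strand).
Rbpj: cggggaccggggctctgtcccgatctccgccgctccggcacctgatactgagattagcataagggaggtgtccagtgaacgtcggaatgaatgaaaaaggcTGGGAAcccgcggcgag
A match gives the letters only, and no binding was measured here.

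The target genes were split, with Hes1 higher and Hey1 lower on average in mutant lenses. Hes1 (chromosome 16, 29883202 to 29886614, plus strand) encodes a repressor that answers to Notch and to other signals, and it was at 5.18 and 5.17 FPKM in mutant and 4.22 and 4.63 FPKM in control lenses. The groups did not overlap, and the log2 fold change was 0.22 with a 95% interval of -0.06 to 0.50 (adjusted p = 0.811, limma). Hey1 (chromosome 3, 8728419 to 8732316, minus strand), a repressor of the related Hey family, was at 3.88 and 5.71 FPKM in mutant and 6.57 and 5.38 FPKM in control lenses. Mutant replicate 2 lay above control replicate 2, and the interval of the log2 fold change, -0.33, ran from -0.88 to 0.22. Leaving out mutant replicate 1 brought it to -0.06, the end of a range that began at -0.60. The ratio of Hes1 to Hey1 was 1.33 and 0.905 in mutant and 0.642 and 0.861 in control lenses, so the mutant values were the higher, by a narrow gap.

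Herpud1 (chromosome 8, 95113066 to 95122005, plus strand) was at 18.0 and 15.0 FPKM in mutant and 13.4 and 16.8 FPKM in control lenses, on 750, 687, 608 and 723 reads. The groups overlapped, and the log2 fold change of 0.13 had a 95% interval of -0.26 to 0.53 (adjusted p = 0.863, limma). Without control replicate 1 it was -0.03. Of 16 genes of the unfolded protein response, 15 passed the filter and none passed the test, adjusted or unadjusted, with 6 higher, 9 lower and a median log2 fold change of -0.03. Atf4, a transcription factor of the integrated stress response and the most abundant of them, was at 73.0 and 62.2 FPKM in mutant and 57.4 and 58.8 FPKM in control lenses, and its log2 fold change of 0.21 (adjusted p = 0.811, limma) had the smallest unadjusted p of the list. Herpud1 was the one gene of the 8 with ER stress element II, the motif ATTGG and CCACG with 1 base between them, which was present in 10 of 32851 windows (0.0304%). It is shown for that motif, in capitals from 52 to 42 bases before the start (RefSeq, GRCm38.p6, chr8:94386179-94386428, plus strand).
Herpud1: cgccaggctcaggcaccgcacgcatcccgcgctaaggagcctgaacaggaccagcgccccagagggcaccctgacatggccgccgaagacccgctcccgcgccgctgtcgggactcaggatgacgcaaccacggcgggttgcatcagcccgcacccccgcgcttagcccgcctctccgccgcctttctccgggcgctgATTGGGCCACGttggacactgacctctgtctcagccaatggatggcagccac
The longer ER stress element, with CCAAT and CCACG 9 bases apart, was in 0.113% of windows. It was not complete in any window of the 8 genes, but the Herpud1 window stops at the start site within a partial match, with CCAAT, 9 bases and then CCAC as its last letters.

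Beyond the 10 genes, 52 further genes of the pathway were listed by role, and 41 of them passed the filter. None had an adjusted p under 0.05, and 3 (7.32%) had an unadjusted p under 0.05, near the 6.31% of all tested genes: Lfng and Itch, lower in mutant lenses, and Dtx2, higher. The count of 3 was 0 without either control library, 1 without mutant replicate 1 and 6 in limma voom on recovered reads. Of the 41, 25 were lower and 16 higher, with a median log2 fold change of -0.13. Groups did not overlap for 13 lower genes (31.7%) and 6 higher genes (14.6%), against 18.3% and 18.2% of all tested genes. Rbpjl and Hes2 had 0 reads in all libraries, and the other 9 genes that failed the filter had at most 17 reads in a library.

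The enzymes that add sugars to the Notch extracellular domain were the role in which every gene had a negative log2 fold change, 6 of 6, from -0.32 to -0.12. Of all tested genes, 50.7% had a positive one. The role was singled out among several by these same values. Only for Lfng did the 95% interval exclude 0, and 3 of the 6 were lower without overlap, against 18.3% of all tested genes. Lfng (Lunatic fringe), which lengthens O-fucose glycans and changes which ligands a receptor answers to, was the most abundant of them, at 14.3 and 15.8 FPKM in mutant and 18.7 and 18.9 FPKM in control lenses. Both mutant values were below both control values. Its log2 fold change was -0.32 with an SE of 0.10 and a 95% interval of -0.56 to -0.08 (adjusted p = 0.734, limma), the smallest unadjusted p among the 10 genes and the further pathway genes. Lfng was in every library more abundant than Jag1, at 1.25 and 1.37 times in mutant and 1.36 and 1.38 times in control lenses.

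Of 8 tested genes for the cutting of ligands and receptors, 5 were higher and 3 lower, with a median log2 fold change of 0.02. Psenen, a small subunit of gamma-secretase and the most abundant gene of this role, was at 42.2 and 33.4 FPKM in mutant and 30.8 and 32.4 FPKM in control lenses, with a log2 fold change of 0.25 (interval -0.10 to 0.60). For the E3 ligases that drive ligand endocytosis, Mib1 was at 1.80 and 2.24 FPKM in mutant and 2.56 and 2.32 FPKM in control lenses, and Mib2 was at 3.13 and 2.77 against 2.39 and 2.74 FPKM. Neither pair of groups overlapped, and they lay in opposite directions.

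Inhibitors and genes of receptor turnover went both ways, 5 higher and 5 lower. Itch, a ubiquitin ligase for which Notch is a known substrate, was at 1.47 and 1.75 FPKM in mutant and 2.24 and 2.14 FPKM in control lenses, with a log2 fold change of -0.43 and an interval of -0.81 to -0.05 (adjusted p = 0.769, limma). Dtx2, of the Deltex family of ubiquitin ligases that bind Notch, was at 1.20 and 1.23 FPKM in mutant and 0.929 and 0.787 FPKM in control lenses, with a log2 fold change of 0.46 and an interval of 0.03 to 0.89 (adjusted p = 0.784, limma). The most abundant gene of this role, Dtx3, was at 13.8 and 13.0 FPKM in mutant and 13.5 and 12.9 FPKM in control lenses.

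Of the nuclear partners of RBPJ, 6 of 9 were lower, with a median log2 fold change of -0.07. Ncor1, a corepressor, was the most abundant over the 4 libraries and had the smallest unadjusted p of this role, at 5.46 and 6 FPKM in mutant and 6.51 and 7.09 FPKM in control lenses (log2 fold change -0.24, interval -0.53 to 0.04). Among the other Hes and Hey genes, Heyl had the smallest unadjusted p: it was at 0.165 and 0.280 FPKM in mutant and 0.503 and 0.350 FPKM in control lenses, on 15, 28, 50 and 33 reads, with an interval of the log2 fold change from -1.62 to 0.18. Hes6, the most abundant of them, was at 2.26 and 2.91 FPKM in mutant and 2.62 and 3.03 FPKM in control lenses. Notch4, the receptor of endothelial cells, was at 0.348 and 0.228 FPKM in mutant and 0.287 and 0.148 FPKM in control lenses.

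**Figure D4:**
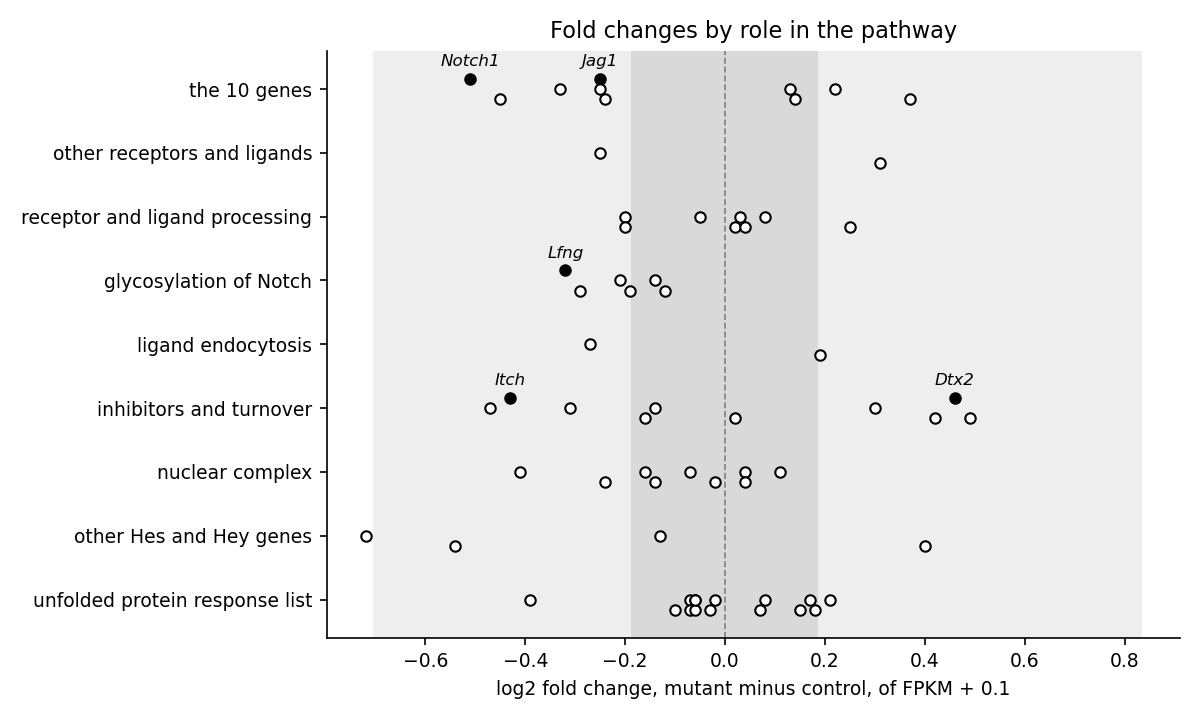
Log2 fold change, mutant minus control, on log2 of FPKM + 0.1 (horizontal axis) of every tested gene, by role (rows). Filled and named points have an unadjusted p under 0.05, and grey bands hold the central range from the 25th to the 75th percentile (-0.186 to 0.185) and from the 5th to the 95th percentile (-0.704 to 0.833) of all 15997 tested genes; of the further genes, only Heyl at -0.72 lies outside the wider band.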

How the data were processed

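Lenses from 2 mutant and 2 control pools were compared, grouped by the labels. The authors' provider aligned reads with HISAT2 to build mm39 (per the labels), counted them with featureCounts and deposited FPKM per gene, and strandedness is not given in the sources used here. FPKM times the deposited gene length gave whole multiples of 1 read for 100% of values (tolerance 0.01 read), from which reads were recovered. No library was a copy of another. The deposited FPKM were not scaled to the totals of recovered reads. Their denominators were 0.944 and 1.049 times those totals in mutant replicates 1 and 2. In control replicates 1 and 2 they were 1.048 and 0.987 times the totals. Median-ratio scaling left the FPKM as deposited. The 15997 genes whose mean FPKM reached 0.1 were analysed with limma 3.58.1 in R 4.3.3 (empirical Bayes with a trend) on log2(FPKM + 0.1), which understates the changes of low genes, and p-values were adjusted by Benjamini-Hochberg over all of them. Confidence intervals are 95%. The procedure was tested on simulated data with changes larger than those of the 10 genes, so that test does not cover changes of their size. Of 15 alternatives, 1 was limma voom on recovered reads. Pathway lists name the most abundant gene, the smallest unadjusted p and every unadjusted p under 0.05. The 10 genes and the lists were chosen with earlier results of these data known. Rbpj-ps3, Rgs5, Abcc9, Acta2, Cldn5, Tie1, Adgre1, Csf1r, Lgsn, Pdgfra and Dll3 were named after their values were seen. Same-numbered libraries did not deviate together (correlation -0.00508), so they were not treated as pairs.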

Additional observations from a re-analysis of the deposited data

How the results depend on the processing

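None of the 10 genes or the 41 further pathway genes passed an adjusted p of 0.05 under any of the 15 alternatives that gave them a value. Over 145 values of the 10 genes, adjusted p ran from 0.289 to 1 and 144 kept their direction. In part this was fixed in advance. With the other filters, FPKM as deposited, no variance trend, the replicate block or Xist as a covariate, a fold change cannot differ from that given above. Only the other alternatives could change a direction. The log2 fold change of Herpud1 was -0.03 without control replicate 1, and 0.30 at the other end of leaving out 1 library. The count of the 10 with an unadjusted p under 0.05 was 2. It became 1 with a filter of a mean FPKM of at least 1 or with no filter, 0 with equal totals of recovered reads, 3 with voom (Notch1, Jag1 and Rbpj), and 0 to 1 with 1 library left out. The stricter filter removed low genes and left 2 that were higher. The median log2 fold change of the 10 was -0.14 with a pseudocount of 1, which shrinks low genes, and -0.26 to -0.10 with 1 library left out. For the further pathway genes, the unadjusted count of 3 became 1 with equal totals, 6 with voom and 0 to 3 with 1 library left out, and the median became -0.06 with a pseudocount of 1 and -0.10 to -0.04 with 1 library left out. The unfolded protein response median was -0.06 with equal totals and -0.04 to 0.02 with 1 library left out, which gave 0 to 1 genes at an unadjusted p under 0.05. With the replicate number as a replicate block, 0 of the 10, 1 further pathway gene and 1 unfolded protein response gene had an unadjusted p under 0.05, and 3 genes of all passed an adjusted p of 0.05. Over all genes the adjusted count was 6, 14 with voom, 2 with either other pseudocount, the stricter filter or no variance trend, 1 with no filter or with Xist as a covariate, and 0 without any 1 library (787 to 1465 at an unadjusted p under 0.05). Leaving out 1 library assumes that the lone sample of its group varies like the other group. Apart from the alternatives named, the cause of these shifts was not tested. Low read counts limit Dll1 and Rbpj the most, with 37 to 87 reads per library.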
